A study of Brassica napus with 10 samples.

Results

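Genes built from 20 or more exons formed a small class of the Brassica napus genome. The exon records of the count table, aligned by the study to Darmor-bzh version 10, listed 59458 genes after 1712 exact repeat rows had been dropped, and 1578 of them (2.65%) had 20 or more exons. They are called many-exon genes here. The remaining genes comprised 46322 of 2 to 19 exons and 11558 of a single exon. Of the many-exon genes, 785 lay on A chromosomes, 768 on C chromosomes and 25 on unplaced sequence, which is 2.88% of all A genes and 2.45% of all C genes.

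Every intron of a plant gene is cut out of the transcript by the spliceosome while or after RNA polymerase II copies the gene, so a transcript of a many-exon gene has to pass through a long series of splicing steps before it can be exported and translated. Plant genes of this kind typically encode large proteins with many domains, and their messenger RNAs are longer than average. Plant introns are mostly short, and introns that remain in the transcript are the commonest form of alternative splicing in plants. Trichostatin A (TSA) inhibits histone deacetylases, enzymes that remove acetyl groups from histones, and heat stress (HS) turns some cultured microspores, the immature male gametophytes, away from pollen development and towards embryo formation.

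RNA was measured in 3-day-old in vitro cultures started from late unicellular microspores and early bicellular pollen of the pLEC1:LEC1-GFP reporter in the DH12075 background, a genotype that gives few embryos. The pollen group (3 libraries) was cultured at 18 °C and was not sorted. The HS + TSA low group (4 libraries, 0.05 µM TSA) and the HS + TSA high group (3 libraries, 0.5 µM TSA) received 24 h at 33 °C with TSA, were then cultured at 25 °C, and were sorted for GFP fluorescence to collect embryogenic structures. All groups carried the reporter, all pollen cultures received the solvent DMSO, and each library pooled 150000 cells, whose RNA was amplified with SMART-seq v4. Heat, TSA, culture temperature, sorting and cell identity therefore cannot be told apart in either comparison with pollen, and the sorted cells are only those in which the LEC1 promoter drove the reporter.

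Libraries held 93367646 to 109105528 counts in pollen, 51838498 to 61458274 in HS + TSA low and 58468526 to 67884748 in HS + TSA high, so depth moved with the groups and its part in the comparisons with pollen was not tested. HS + TSA low libraries 1 and 4 resembled each other more than any other pair (r of log2 CPM over tested genes 0.991). They differed by more than sampling noise, with a chi-square per degree of freedom of 7.91 in read pairs. The other pairs of HS + TSA low libraries had 31.0 to 59.2. The value of 7.91 cannot show whether libraries 1 and 4 came from independent cultures, as no repeat preparation of 1 culture was available for comparison. They were kept as separate libraries, as labelled, and their independence was not tested. HS + TSA high library 1 stood apart from libraries 2 and 3 (r = 0.929 and 0.913, against 0.965 between libraries 2 and 3). The sources used here do not pair the gene IDs with names: 0 IDs matched the reference gene table, and none of the many-exon genes was among the 71 endoplasmic reticulum stress genes of the study, of which 52 were in the count table with at most 15 exons each. Embryo, pollen and tapetum markers could not be checked for the same reason.

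The many-exon genes had a median of 24 exons, and the highest number was 77. Of the 1578 genes, 1257 had 20 to 29 exons, 321 had 30 or more and 94 had 40 or more. Their summed exon length had a median of 3499 bases, against 1314 bases for genes of 2 to 19 exons. Exons were short, with a median over genes of 108 bases against 180 bases, whereas the typical intron was of similar size in both classes (96 and 102 bases). Total intron length was 3429.5 bases in the median many-exon gene and 721 bases in the median gene of 2 to 19 exons, 103 many-exon genes had an intron longer than 5000 bases, and 39 carried an annotated intron shorter than 20 bases. The span of 111 of them (7.03%) overlapped another gene, compared with 8.13% of genes of 2 to 19 exons, and reads of such neighbours may not have been separable because the library kit does not mark strand.

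Nearly all many-exon genes were expressed. A filter on low counts kept 1534 of 1578 (97.2%), compared with 78.5% of genes of 2 to 19 exons and 63.7% of genes of 1 exon, while 44 did not pass and 6 of these had no count in any library. The share kept rose with exon number and was already 92.8% for genes of 11 to 19 exons. It showed no step at the limit, with 93.8% for genes of exactly 19 exons and 93.4% for exactly 20. Because a longer transcript collects more counts, the comparison was repeated within windows of exon length, inside which lengths were not matched further. Among genes of 2500 to 3500 bases, 97.0% of the many-exon genes and 89.7% of the genes of 2 to 19 exons passed, and above 5000 bases the shares were 98.6% and 96.4%.

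A level of at least 1 CPM (counts scaled to a fixed library total by the TMM effective library size) in every library was reached by 1416 many-exon genes in pollen (89.7%), 1393 in HS + TSA low (88.3%) and 1403 in HS + TSA high (88.9%). The corresponding shares of genes of 2 to 19 exons were 56.1%, 59.3% and 58.8%. Expressed per kilobase of exon, the median level over all many-exon genes was 5.78 CPM per kb in pollen, 4.19 in HS + TSA low and 4.90 in HS + TSA high, against 2.27, 3.07 and 3.16 CPM per kb for genes of 2 to 19 exons. The many-exon genes were thus above this pooled class in each group, and the gap between the medians was widest in pollen. They were not above the nearest class, as genes of 11 to 19 exons had medians of 6.04, 5.15 and 5.81 CPM per kb. In bulk RNA such as this, a smaller number of cells that express a gene and less of its RNA per cell cannot be told apart.

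The most abundant many-exon gene per kilobase on an A chromosome was A08p00090.1_BnaDAR, a gene of 27 exons on chromosome A08 from 48763 to 57304 (Darmor-bzh version 10). It had 419, 355 and 335 CPM in pollen, 443, 489, 648 and 487 CPM in HS + TSA low, and 628, 777 and 945 CPM in HS + TSA high. The HS + TSA low libraries all lay above pollen, and in HS + TSA high only library 1 lay within the range of the low dose. Its log2 fold change was 1.08 (SE 0.18, adjusted p = 0.000551, edgeR's quasi-likelihood test with Benjamini-Hochberg adjustment) in HS + TSA high against pollen. On C chromosomes the leading gene was C06p52800.1_BnaDAR, of 22 exons, on chromosome C06 from 49403402 to 49410144. It had 325, 427 and 431 CPM in pollen but 152 to 202 CPM in HS + TSA low and 174 to 228 CPM in HS + TSA high, and pollen overlapped neither group. Its log2 fold change against pollen was -1.16 (SE 0.15, edgeR adjusted p = 0.000102) in HS + TSA low and -0.94 (SE 0.16, edgeR adjusted p = 0.000651) in HS + TSA high.

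Many-exon genes took a smaller share of the counts in embryogenic structures than in pollen. They collected 5.71, 5.61 and 5.75% of all counts in the pollen libraries, 4.01, 3.94, 3.62 and 4.19% in the HS + TSA low libraries, and 5.29, 4.67 and 4.59% in the HS + TSA high libraries. The means were 5.69 ± 0.071% (SD, n = 3), 3.94 ± 0.236% (SD, n = 4) and 4.85 ± 0.386% (SD, n = 3). The groups did not overlap: every HS + TSA low library was below every HS + TSA high library, and these were all below pollen. Genes of 1 exon moved the other way, from 7.96 ± 0.297% of counts in pollen to 12.0 ± 0.559% and 11.5 ± 0.687%. Genes whose exons sum to more than 3500 bases, whatever their exon number, took 5.79 ± 0.230%, 4.11 ± 0.375% and 4.91 ± 0.340% of counts.

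**Figure D1:**
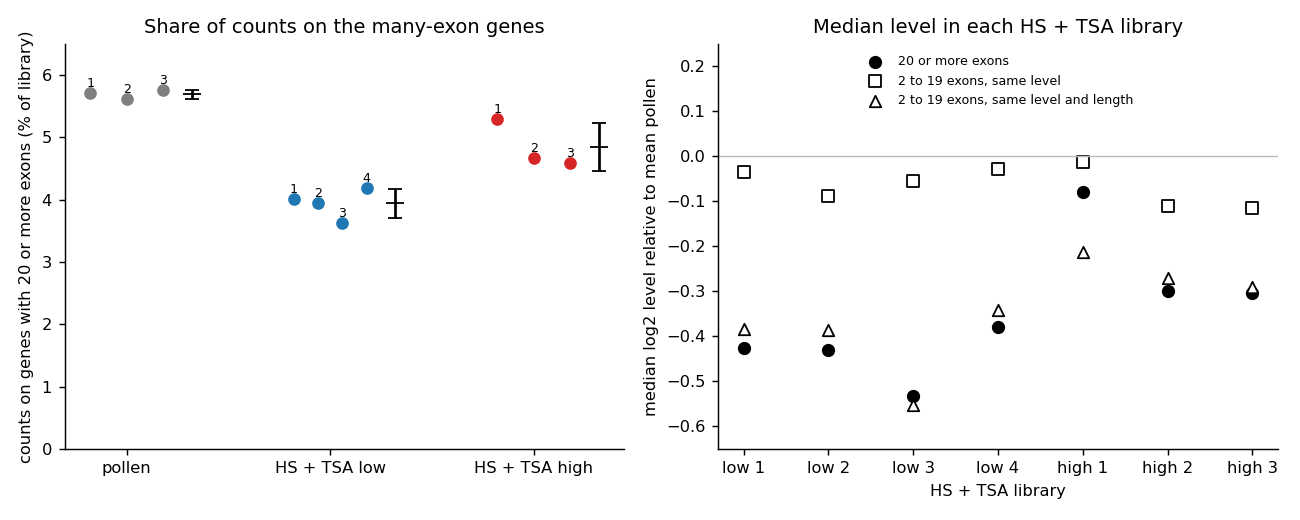
Left, share of each library's counts on genes with 20 or more exons, in percent, with 1 point per library (replicate number above it) and the group mean ± SD beside it. Right, median level relative to mean pollen, log2(CPM + 0.5), in each HS + TSA library for genes with 20 or more exons and for genes of 2 to 19 exons weighted to the same level, or to the same level and exon length; the 3.62% of HS + TSA low library 3 is the lowest share, and HS + TSA high library 1 lies nearest to pollen on the right.

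The first comparison asked how the RNA of these genes differed between embryogenic structures induced at the low TSA dose and developing pollen. Of the 1534 many-exon genes tested, 590 (38.5%) were lower in HS + TSA low than in pollen and 158 (10.3%) were higher, at an edgeR adjusted p of at most 0.05 over all genes tested. Over all 45264 genes tested, 17.4% were lower and 26.4% were higher. The median log2 fold change of the many-exon genes was -0.48, with quartiles of -0.94 and 0.07, whereas that of all genes was 0.10. At least 2-fold lower calls numbered 291 (18.97% of those tested, against 9.8% of all genes), and at least 2-fold higher calls numbered 104 (6.78%, against 21.6%). The fall was visible in each library: the median level relative to mean pollen was -0.43, -0.43, -0.53 and -0.38 on the log2 scale.

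The genes with the largest changes, among those that averaged at least 5 CPM in the higher group and overlapped neither between the groups nor with another gene, spanned a wide range of levels. A01p38140.1_BnaDAR, of 24 exons, on chromosome A01 from 26669759 to 26676281, was among the most abundant of them in pollen, with 764, 1198 and 1487 CPM. It had 59.9, 77.8, 81.7 and 60.9 CPM in HS + TSA low and 103, 93.1 and 87.7 CPM in HS + TSA high. All pollen libraries lay far above the others, with a log2 fold change of -4.04 (SE 0.22, edgeR adjusted p = 2.24e-07) in HS + TSA low and -3.60 (SE 0.24, edgeR adjusted p = 7.73e-07) in HS + TSA high. A05p15560.1_BnaDAR, of 22 exons, on chromosome A05 from 8179635 to 8184559, went the opposite way. It had 2.32, 3.24 and 1.19 CPM in pollen, 39.4, 46.3, 33.9 and 40.9 CPM in HS + TSA low, and 81.0, 44.0 and 45.3 CPM in HS + TSA high. Again pollen stood apart from both groups, with a log2 fold change of 4.15 (SE 0.36, edgeR adjusted p = 7.05e-06) in HS + TSA low.

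C07p37870.1_BnaDAR, of 20 exons, on chromosome C07 from 40719303 to 40730969, had the largest rise in HS + TSA low under the same limits. It had 0.255, 0.233 and 0.367 CPM in pollen and 3.37, 13.0, 8.83 and 4.01 CPM in HS + TSA low, a log2 fold change of 4.67 (SE 0.68, edgeR adjusted p = 0.000258). An A gene with the same exon number and 80% of exons of equal length, A06p40230.1_BnaDAR, did not share the rise. That gene had 15.7, 14.4 and 21.2 CPM in pollen and 12.7, 9.25, 14.1 and 9.94 CPM in HS + TSA low, and it did not pass the test (edgeR adjusted p = 0.232). The A and C genes of this pair thus differed both in level and in the direction of their values.

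In HS + TSA high the balance between lower and higher many-exon genes was less uneven. Against pollen, 402 of the 1534 (26.2%) were lower and 234 (15.3%) were higher, where 18.8% of all genes tested were lower and 27.5% were higher. Among genes of 2 to 19 exons weighted to the same level, 24.6% were lower and 24.2% were higher. The median log2 fold change was -0.22, with quartiles of -0.73 and 0.37, and that of all genes was 0.09. Of the calls, 206 were lower by at least 2-fold (13.4% of those tested, against 12.2% of all genes) and 163 were higher by at least 2-fold (10.6%, against 23.4%). The median level relative to mean pollen was -0.08 in library 1, -0.30 in library 2 and -0.30 in library 3, so library 1 lay nearest to pollen. Without that library, 484 genes were lower, 214 were higher and the median was -0.31. Both comparisons used the same pollen libraries, and their calls are not independent of each other.

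The genes chosen here were near silence in 1 of the groups. A09p64520.1_BnaDAR, of 30 exons, on chromosome A09 from 51163120 to 51173095, had no count in any pollen library, 2.98, 3.65, 1.96 and 2.26 CPM in HS + TSA low, and 4.75, 4.66 and 8.62 CPM in HS + TSA high. With a floor of 3 counts per library, the HS + TSA high mean of 6.01 ± 2.26 CPM (SD, n = 3) was at least 197-fold higher than pollen (edgeR adjusted p = 4.21e-06). A C gene with the same exon number and 86.7% of exons of equal length, C08p48320.1_BnaDAR, had at most 0.0734 CPM in pollen and 2.13 to 4.78 CPM in the HS + TSA libraries. Both genes were therefore close to silent in pollen and expressed in every HS + TSA library.

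C01p48410.1_BnaDAR, of 27 exons, on chromosome C01 from 44753037 to 44757961, had 2 counts in the 3 pollen libraries together and 2282 in the HS + TSA high libraries. The ratio of depth-scaled counts was 1848, with a 95% counting interval of 511 to 15265 that covers counting error only. Its levels were 0.872, 4.04, 4.74 and 1.25 CPM in HS + TSA low and 4.51, 14.0 and 19.03 CPM in HS + TSA high, so library 1 of the high dose lay below the highest library of the low dose. An A gene with the same exon number and 88.9% of exons of equal length, A01p38160.1_BnaDAR, had at most 0.147 CPM in pollen and 3.75, 15.3 and 14.2 CPM in HS + TSA high.

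The fall to near silence concerned an A and C pair with every exon of equal length. A09p36700.1_BnaDAR, of 24 exons, on chromosome A09 from 36237134 to 36242816, had 14.9, 22.5 and 10.0 CPM in pollen, 1.95, 0, 1.31 and 1.97 CPM in HS + TSA low, and no count in any HS + TSA high library. With the floor of 3 counts per library its pollen mean of 15.8 ± 6.30 CPM (SD, n = 3) was at least 306-fold higher than HS + TSA high (edgeR adjusted p = 0.00219). In HS + TSA low its log2 fold change was -3.59 (SE 1.09, edgeR adjusted p = 0.0297). C05p28500.1_BnaDAR, on chromosome C05 from 20143082 to 20148783, had 16.9, 30.5 and 12.5 CPM in pollen, 4.64, 1.31, 1.45 and 3.79 CPM in HS + TSA low, and 0.343, 0.688 and 1.42 CPM in HS + TSA high. Pollen did not overlap either group, and the log2 fold change in HS + TSA high was -4.61 (SE 0.69, edgeR adjusted p = 0.000255). Reads of genes with such similar structure may be shared between them, which was not tested.

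Complete switches of this kind were rare. Many-exon genes under 0.1 CPM in every pollen library and at 1 CPM or more in every library of the other group numbered 3 in HS + TSA low (0.190%) and 5 in HS + TSA high (0.317%), against 1.01% and 1.39% of genes of 2 to 19 exons. In the opposite direction there were 0 in HS + TSA low and 4 in HS + TSA high (0.253%), against 0.0281% and 0.212% of genes of 2 to 19 exons. The number of many-exon genes with a mean of at least 100 CPM was 115 in pollen, 46 in HS + TSA low and 70 in HS + TSA high, while the number under 1 CPM was 140, 130 and 130. The upper end of the distribution thus held fewer many-exon genes in both HS + TSA groups than in pollen, and the lower end did not fill. These counts were not taken for genes of fewer exons. In pollen, HS + TSA low and HS + TSA high, the upper quartile of many-exon genes was 12.6, 8.77 and 10.6 CPM per kb. That of genes of 2 to 19 exons was 11.9, 11.7 and 11.7 CPM per kb.

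The dose comparison asked what a 10-fold higher TSA concentration changed within sorted embryogenic structures. Of 1534 many-exon genes, 165 (10.8%) were higher and 23 (1.499%) had a lower level in HS + TSA high than in HS + TSA low, whereas over all genes tested 4.94% were higher and 5.46% were lower. The median log2 fold change was 0.25, against 0.02 for all genes, and 50 genes (3.26%) were higher and 14 (0.913%) lower by at least 2-fold, against 3.14% and 3.19% of all genes. The count moved with the libraries in the fit. The 165 and 23 came from a fit without the replicate number. A fit of the 7 HS + TSA libraries alone gave 110 higher and 9 lower, and the same fit with the replicate number as a block gave 64 and 8, with a median of 0.27. With the block, HS + TSA low library 4, which has no partner, does not enter the dose difference. The parts of blocking and of that library in the lower counts cannot be told apart here. Without HS + TSA low library 1 there were 72 higher and 9 lower, and without its library 4 there were 117 and 15. Without HS + TSA high library 1 there were 184 higher and 55 lower with a median of 0.14, without library 2 there were 89 and 16, and without library 3 there were 103 and 13. More were higher than lower in each of these fits.

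C06p14940.1_BnaDAR, of 22 exons, on chromosome C06 from 19550827 to 19557438, was near silent in all groups but HS + TSA high. It had 0 to 0.143 CPM in pollen, 0, 0.197, 0.407 and 0 CPM in HS + TSA low, and 4.37, 7.81 and 6.81 CPM in HS + TSA high. The doses did not overlap, while pollen lay within the range of the low dose. The log2 fold change between the doses was 5.36 (SE 1.31, edgeR adjusted p = 0.0279). A05p18250.1_BnaDAR, of 23 exons, on chromosome A05 from 10089510 to 10095870, had 0.227, 1.31, 1.84 and 0.217 CPM in HS + TSA low and 7.08, 29.2 and 14.2 CPM in HS + TSA high. Here too every library of the high dose lay above every library of the low dose, with a log2 fold change of 4.22 (SE 1.11, edgeR adjusted p = 0.0403).

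Among genes that averaged at least 5 CPM at the low dose and overlapped neither between the doses nor with another gene, the largest fall between the doses belonged to one with a very long intron. A09p19050.1_BnaDAR, of 34 exons with an intron of 17554 bases, on chromosome A09 from 11863724 to 11892204, had 8.64, 10.4, 16.8 and 6.23 CPM in HS + TSA low and 2.55, 2.99 and 1.67 CPM in HS + TSA high. Its pollen libraries, at 7.49, 9.77 and 11.5 CPM, were in the range of the low dose. The high dose lay below both, with a log2 fold change of -2.13 (SE 0.37, edgeR adjusted p = 0.00718) against the low dose. C07p42810.1_BnaDAR, of 20 exons, on chromosome C07 from 43822320 to 43828924, descended in steps, with 37.6, 39.7 and 28.6 CPM in pollen, 15.1, 8.63, 12.8 and 20.3 CPM in HS + TSA low, and 5.67, 7.76 and 3.79 CPM in HS + TSA high. Its log2 fold change between the doses was -1.31 (SE 0.31, edgeR adjusted p = 0.0235).

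The gene with the most exons showed no call. C03p66700.1_BnaDAR, with 77 exons that sum to 8759 bases, on chromosome C03 from 44841834 to 44867002, overlaps another gene. It had 24.9, 24.5 and 19.8 CPM in pollen, 18.0, 17.5, 9.70 and 17.2 CPM in HS + TSA low, and 28.4, 15.4 and 9.78 CPM in HS + TSA high. The doses overlapped, pollen lay above the low dose without a call, and library 3 was the lowest of each HS + TSA group. The edgeR adjusted p was 0.181, 0.410 and 0.746 in HS + TSA low against pollen, HS + TSA high against pollen and between the doses.

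The many-exon genes were the far end of a gradient rather than a separate class. The median log2 fold change of HS + TSA low against pollen was 0.65 for genes of 1 exon, 0.31 for genes of 2 to 5, -0.03 for genes of 6 to 10 and -0.28 for genes of 11 to 19. It was -0.50 for genes of 20 to 29 exons and -0.39 for genes of 30 or more, so the fall did not deepen further beyond 20 exons. In HS + TSA high the medians of these 6 classes were 0.68, 0.20, -0.02, -0.15, -0.22 and -0.16. Between the doses the sequence ran upwards from the 2 to 5 exon class, with -0.08, 0.03, 0.15, 0.26 and 0.25. The limit of 20 exons marked no step: the 242 tested genes of exactly 20 exons had medians of -0.48, -0.22 and 0.24 in the 3 comparisons, and the 302 tested genes of 19 exons had -0.51, -0.26 and 0.25.

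**Figure D2:**
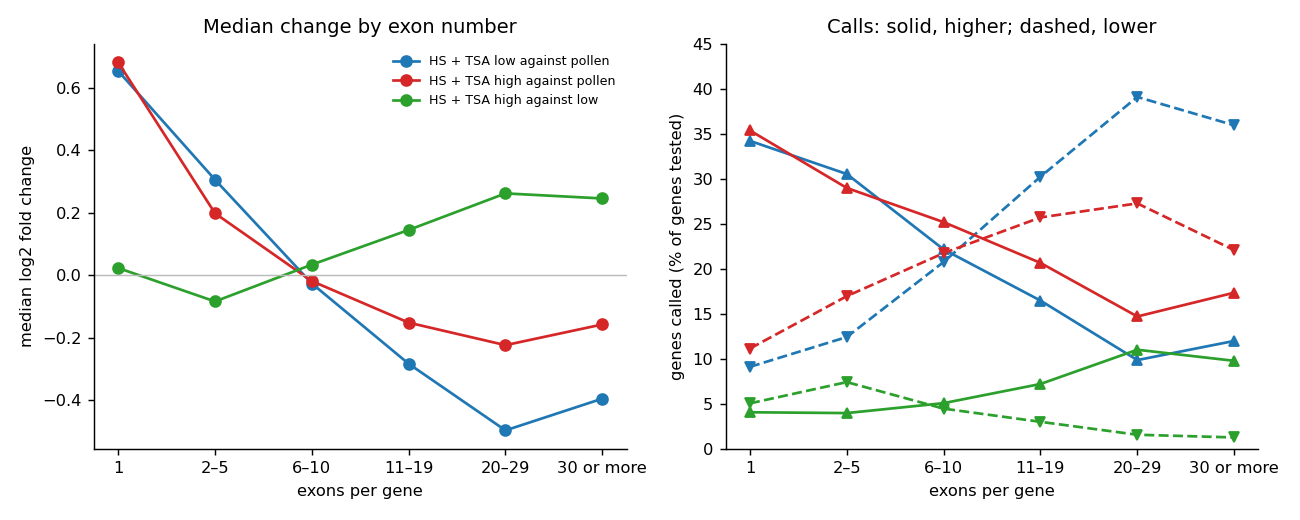
Median log2 fold change (left) and percent of tested genes called higher (solid lines, upward triangles) or lower (dashed lines, downward triangles) by edgeR at an adjusted p of at most 0.05 (right), by number of exons per gene, in the 3 comparisons. Against pollen the medians run from 0.65 and 0.68 in genes of 1 exon to -0.50 and -0.22 in genes of 20 to 29 exons.

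Set against genes of 2 to 19 exons of the same level, the many-exon genes had lower medians against pollen and a higher median between the doses. When 36365 tested genes of 2 to 19 exons were weighted to the level of the many-exon genes in 20 strata, their median log2 fold change was -0.05 in HS + TSA low, -0.07 in HS + TSA high and 0.01 between the doses. The many-exon genes lay 0.43 and 0.15 below these medians against pollen and 0.25 above between the doses. In HS + TSA low, 23.8% of the weighted genes were lower and 24.4% were higher, against 38.5% and 10.3% of the many-exon genes. In HS + TSA high, 24.6% were lower and 24.2% were higher, against 26.2% and 15.3%. The share lower at the high dose was thus close in both classes, and fewer many-exon genes were higher. Between the doses 5.38% of the weighted genes were higher and 7.08% lower, against 10.8% and 1.499%. The order of the medians against pollen held in each library, since the median of the many-exon genes relative to pollen was below that of the weighted genes in all 4 HS + TSA low and all 3 HS + TSA high libraries.

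Long genes of fewer exons had much the same medians as the many-exon genes. The genes weighted by level had a median exon length of 1481 bases, far shorter than the 3499 bases of the many-exon genes. When they were weighted by level and exon length together, in 25 strata with a median length of 3492 bases, their median log2 fold changes became -0.44, -0.26 and 0.21, and the many-exon genes differed from them by -0.040, 0.045 and 0.048. Among these length-weighted genes 38.7% were lower in HS + TSA low, next to 38.5% of the many-exon genes, and 14.8% were higher, next to 10.3%. Between the doses 9.49% of the length-weighted genes were higher and 2.59% were lower, next to 10.8% and 1.499%. The smallest stratum held 33 genes of 2 to 19 exons, so the weighted shares rest on few genes there.

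Within windows of exon length, the gap between the classes against pollen narrowed and then turned. For genes of 1500 to 2500 bases the median in HS + TSA low was -0.39 for many-exon genes and -0.12 for genes of 2 to 19 exons. For 2500 to 3500 bases these values were -0.46 and -0.38, and for 3500 to 5000 bases they were -0.56 and -0.49. Above 5000 bases, however, 274 many-exon genes had a median of -0.39 and 241 genes of 2 to 19 exons had -0.59, and in HS + TSA high these medians were -0.26 and -0.58. Among the longest genes, those with many exons were thus less reduced against pollen than the pooled genes of 2 to 19 exons. In that pooled class, the 30 tested genes of 2 to 5 exons had medians of -0.40 and -0.08. Those of 6 to 10 exons had -0.51 and -0.57, and those of 11 to 19 exons had -0.61 and -0.59. Between the doses, many-exon genes and genes of 2 to 19 exons had medians of 0.25 and 0.16 for 1500 to 2500 bases. For 2500 to 3500 bases these were 0.27 and 0.31, for 3500 to 5000 bases 0.27 and 0.29, and above 5000 bases 0.18 and 0.10. From 2500 to 5000 bases the many-exon genes were thus not above the other class between the doses.

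**Figure D3:**
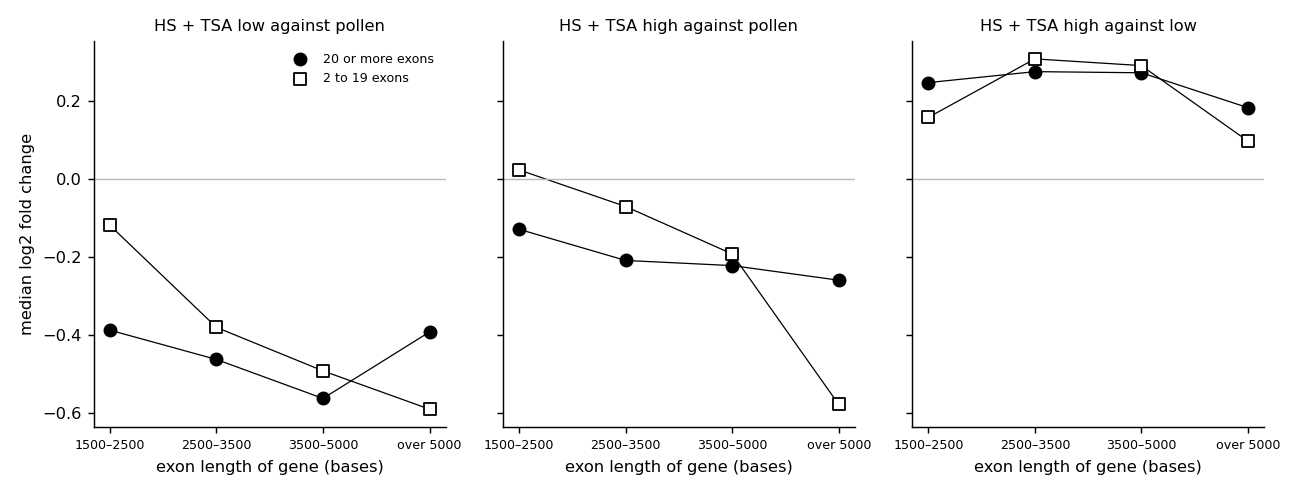
Median log2 fold change of genes with 20 or more exons (filled circles) and of genes of 2 to 19 exons (open squares) in 4 windows of summed exon length, in bases, for the 3 comparisons. In HS + TSA low against pollen the many-exon genes are lower up to 5000 bases, and above 5000 bases their median is -0.39 against -0.59.

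Many-exon genes were also described by the amount of their intron sequence. Split into a short, a middle and a long group by total intron length, the 511, 511 and 512 genes had median log2 fold changes of -0.48, -0.52 and -0.39 in HS + TSA low and -0.18, -0.23 and -0.22 in HS + TSA high. Between the doses the medians were 0.31, 0.25 and 0.24. The share of genes lower in HS + TSA low was 36.6%, 44.8% and 34.0%, so the middle group was highest. Median exon length rose over the 3 groups from 3114 to 3491 and 4226 bases, and its part in these values was not tested. The libraries of a group also agreed about as well on many-exon genes as on others, the median SD of log2 levels being 0.187, 0.253 and 0.319 in pollen, HS + TSA low and HS + TSA high against 0.190, 0.252 and 0.301 for genes of 2 to 19 exons at the same level.

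A and C chromosomes gave nearly the same picture. Brassica napus carries the chromosome sets of its ancestors Brassica rapa (A) and Brassica oleracea (C), so most genes have a copy on each. In HS + TSA low, 302 of 766 many-exon genes on A chromosomes (39.4%) and 280 of 745 on C chromosomes (37.6%) were lower than pollen, with medians of -0.48 and -0.47. In HS + TSA high the numbers lower were 200 (26.1%) and 195 (26.2%), with medians of -0.22 and -0.21. Between the doses 94 A genes (12.3%) and 69 C genes (9.26%) were higher, 9 and 14 were lower, and the medians were 0.29 and 0.22.

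The balance of counts between the A and C many-exon genes shifted by a small amount. A genes took 52.3, 52.4 and 52.5% of the A and C counts in pollen, 51.6, 51.3, 51.1 and 51.7% in HS + TSA low, and 53.0, 52.9 and 52.8% in HS + TSA high. The 3 groups did not overlap, with the low dose lowest and the high dose highest. This order depended on the 3 chromosome stretches described next. Without them, A genes took 52.9, 53.1 and 53.2% in pollen, 51.9, 51.9, 52.0 and 51.9% in HS + TSA low, and 53.2, 53.2 and 53.1% in HS + TSA high, so that the high dose overlapped pollen and the low dose remained the lowest.

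Chromosome C02 had the lowest median in each of the 3 comparisons. Its 65 tested many-exon genes had median log2 fold changes of -0.76 in HS + TSA low, -0.84 in HS + TSA high and -0.32 between the doses. Of these genes 0 were higher and 4 (6.15%) lower between the doses. The shares higher and lower were 4.94% and 5.46% of all genes, and 10.8% and 1.499% of all many-exon genes. The share lower in HS + TSA low was 33.8%, below the 38.5% of all many-exon genes. On the other 18 chromosomes the median between the doses was between 0.06 (C01) and 0.36 (A08). Part of this lay at the end of the chromosome. In windows of 2000000 bases, 12 of 411 windows had a median relative to pollen under -1 on the log2 scale in at least 1 library, taken over tested genes of any exon number with a mean above 2 CPM (at least 10 a window), and 4 windows had 1 above the same size in the other direction. The 12 windows formed 3 stretches: C02 from 46000001 to 62000000, C04 from 1 to 6000000 and C07 from 46000001 to 48000000. The windows were defined after the values had been seen, and their medians are a description.

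The stretches held 36 many-exon genes, of which 34 were tested. Over these 34 genes, the median level relative to mean pollen was -1.91 in HS + TSA low library 1 and -2.02 in library 4, but -0.74 in library 2 and -0.24 in library 3. In the HS + TSA high libraries it was -1.86, -1.47 and -1.10. HS + TSA low libraries 1 and 4 and HS + TSA high library 1 thus shared the deepest values, and HS + TSA low library 3 lay nearest to pollen, with medians of -0.28 in the C02 genes, -0.06 in the C04 genes and -1.10 in the 4 tested C07 genes. Genes of 2 to 19 exons in the same stretches had medians of -1.24, -0.09, 0.38 and -1.34 in HS + TSA low and -1.34, -0.81 and -0.63 in HS + TSA high, so genes of fewer exons in these stretches had their lowest medians in the same 3 libraries.

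Single genes of these stretches, chosen after their values were seen, spanned from clear expression to near silence among the libraries of 1 group. C02p61380.1_BnaDAR, of 49 exons, on chromosome C02 from 59927949 to 59940498, had 6.20, 9.79 and 8.11 CPM in pollen, 0, 4.57, 6.44 and 0 CPM in HS + TSA low, and 0, 2.65 and 3.33 CPM in HS + TSA high. C04p00010.1_BnaDAR, of 29 exons, on chromosome C04 from 244460 to 254077, had 15.4, 33.4 and 37.4 CPM in pollen, 0.0379, 20.0, 26.9 and 0.325 CPM in HS + TSA low, and 0.285, 9.12 and 10.1 CPM in HS + TSA high. C07p47670.1_BnaDAR, of 27 exons, on chromosome C07 from 46827464 to 46844596, had 18.9, 21.9 and 19.9 CPM in pollen, 0.0758, 9.76, 17.0 and 0.108 CPM in HS + TSA low, and 0.0285, 6.68 and 7.07 CPM in HS + TSA high. None of the 3 passed the test in any comparison, and the edgeR adjusted p of C04p00010.1_BnaDAR in HS + TSA low was 0.542.

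**Figure D4:**
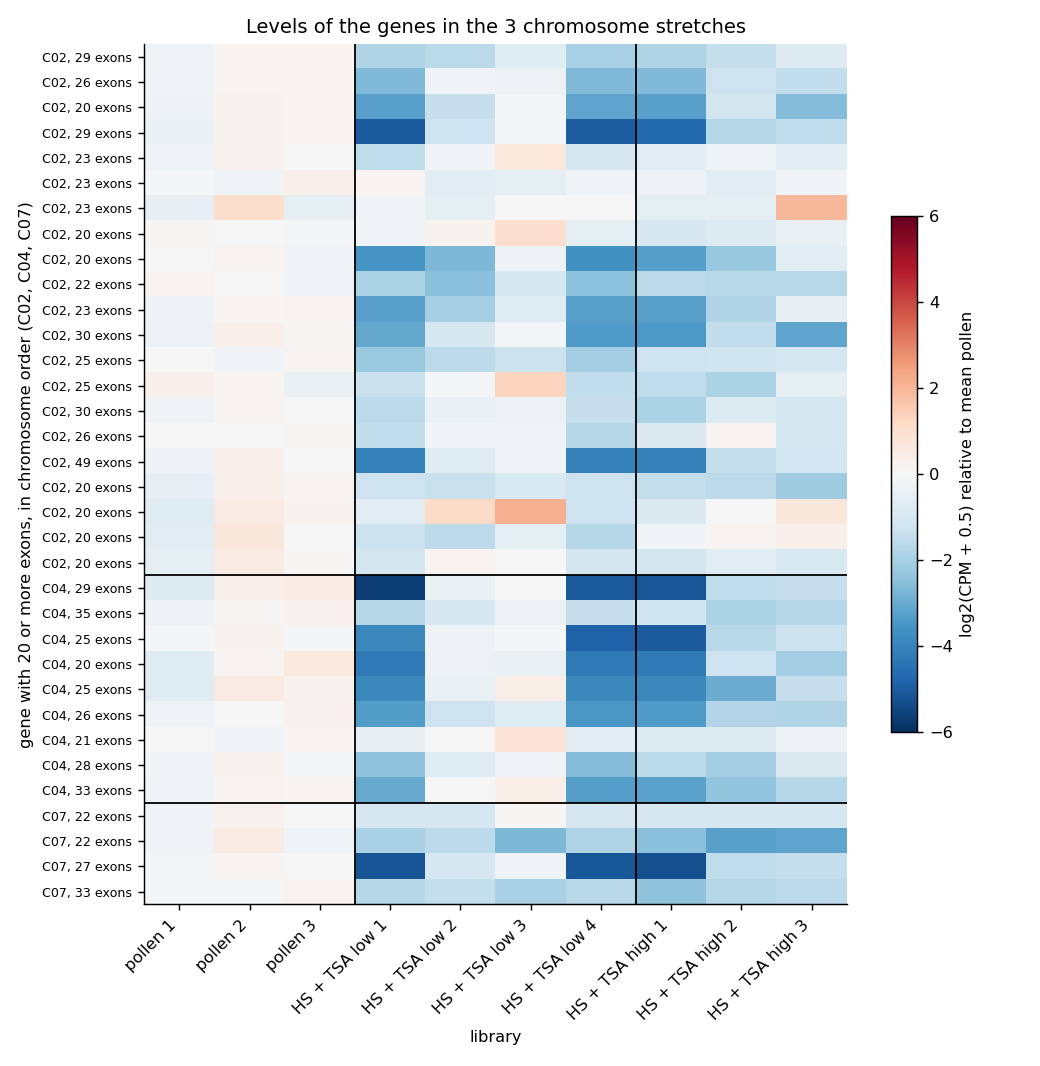
Level of the 34 tested genes with 20 or more exons in the 3 chromosome stretches (rows, in chromosome order, named by chromosome and exon number; black lines separate C02, C04 and C07) in each of the 10 libraries (columns), as log2(CPM + 0.5) relative to mean pollen. The darkest blue columns are HS + TSA low libraries 1 and 4 and HS + TSA high library 1, with medians of -1.91, -2.02 and -1.86.

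Of the 34 genes, 8 (23.5%) were called lower in HS + TSA low and 10 (29.4%) in HS + TSA high, against 17.4% and 18.8% of all genes and 38.5% and 26.2% of all many-exon genes, and 0 were called between the doses. Without the stretches the many-exon genes gave 158 higher and 582 lower in HS + TSA low, 234 and 392 in HS + TSA high, and 165 and 23 between the doses, so the counts for the whole class did not rest on them. Outside its stretch, C02 had a median of -0.47 in HS + TSA low over 44 tested many-exon genes, close to the -0.43 of the C many-exon genes outside C02 and the stretches. Between the doses its 44 many-exon genes had a median of -0.29, and its 1303 tested genes of 2 to 19 exons had -0.43, with 15 higher and 187 lower, whereas these classes had 0.27 and 0.03 on the C chromosomes outside C02 and the stretches. What lies behind the values of C02 and of the stretches was not tested.

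Pairs of A and C genes with matching exon structure were compared, and the genes of a pair are called copies here. Neither sequence nor gene order was used to pair them, so whether they descend from the same ancestral gene was not tested. A total of 321 pairs had the same number of exons and at least 80% of exons of equal length, each gene being the only best match of the other, and 162 of them lay on chromosomes of the same number. In 314 pairs both genes were tested. The copies moved together: across these pairs, Pearson's r of the A and C log2 fold changes was 0.74 in HS + TSA low, 0.75 in HS + TSA high and 0.69 between the doses. Spearman's rho, which gives less weight to the few pairs near 0 counts in 1 group, was 0.71, 0.68 and 0.49. These are correlations across genes, which are not independent replicates, and copies may share reads and were measured in the same libraries.

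Both copies were lower in HS + TSA low in 96 pairs and both were higher in 19, while 1 copy alone was lower in 62 (30 A and 32 C) and 1 copy alone was higher in 20 (12 A and 8 C). No pair was called in opposite directions. In HS + TSA high both were lower in 52 pairs, both were higher in 28, and 2 pairs had opposite calls, 1 of which was the pair of C07p37870.1_BnaDAR and A06p40230.1_BnaDAR. Between the doses both were higher in 14, the A copy alone in 22 and the C copy alone in 19, and no pair had both copies lower. The median log2 ratio of the A to the C copy was -0.10 in pollen, -0.07 in HS + TSA low and 0.01 in HS + TSA high. A ratio of at least 4-fold in favour of A was seen in 14, 15 and 11 pairs, and in favour of C in 8, 6 and 6 pairs.

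**Figure D5:**
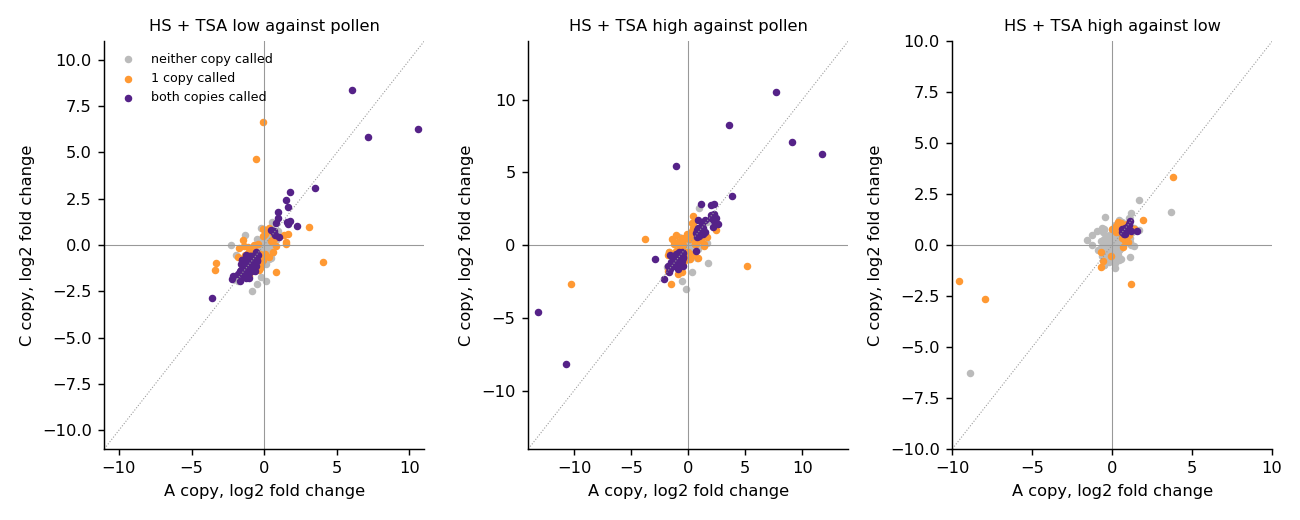
Log2 fold change of the A copy (horizontal axis) and the C copy (vertical axis) in 314 pairs of genes with 20 or more exons and matching exon structure, in the 3 comparisons, coloured by how many copies were called by edgeR at an adjusted p of at most 0.05; the dotted line marks equal change. Spearman's rho is 0.71 and 0.68 against pollen in HS + TSA low and high and 0.49 between the doses, and 96 pairs are lower in both copies in HS + TSA low.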

How the data were processed

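RNA was measured in 10 libraries from 3 groups. The deposited values are raw counts per gene: the authors aligned paired reads to Darmor-bzh version 10 with STAR and the authors counted them over annotated exons with featureCounts, replicates unpooled. Versions given by the submitters were STAR 2.7.10a and Subread 1.5.2, which differ from those in the study's methods. Exact repeat rows were dropped (1712 of 61170), and exons were counted from each gene's deposited exon records. Other deposited tables hold the authors' normalized values and their own comparisons (fold changes and p-values) and were not used.

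Genes that passed filterByExpr (minimum count 10, minimum total 15) were fitted in edgeR 4.0.16 (R 4.3.3) with TMM factors and robust quasi-likelihood tests over all 10 libraries, and p-values were adjusted by Benjamini-Hochberg over all 45264 genes (threshold 0.05). The study used DESeq2, here an alternative (1.42.0) beside limma-voom (3.58.1). The SE of a log2 fold change is its size over the square root of F. Code was tested on simulated counts. Levels are CPM on TMM effective library sizes, and log2 levels used CPM + 0.5. Genes of 2 to 19 exons were weighted to the many-exon genes within strata of mean log2 level. Summaries used Python 3.11.15 and pandas 2.3.3.

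Named genes are, per comparison, up to 2 higher and 2 lower many-exon genes of largest fold change that were called, did not overlap between groups, averaged at least 5 CPM in the higher group and overlapped no other gene, plus the most abundant per kb on A and on C and the one with most exons. The labels call the libraries biological replicates. HS + TSA low and high libraries with the same number deviated together (correlations 0.353, 0.135 and 0.210, or 0.284, 0.102 and 0.140 without C02 and the stretches). The main fit left out the replicate number, so the main dose counts did not use this pairing. Only the alternative with a replicate block took these libraries as paired. However, low library 2 correlated more with high 3 (0.206), and low 3 nearly as much with high 2 (0.189). Without C02 and the stretches, low 3 had 0.154 with high 2 against 0.140 with its own number. Low 4, which has no partner, correlated with high 1 (0.294), while pollen did not pair. Genes, lists and tests were chosen with earlier results of these data known. Alternatives were another scaling, filter, tool, threshold, exon limit and set of libraries, the replicate block, and windows of chromosomes added after seeing the data. Counting intervals and floors cover counting error only.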

Additional observations from a re-analysis of the deposited data

Results flagged for a closer look

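In 20 measures and genes looked at over the 4 HS + TSA low libraries, 1 had a library far from the others: C03p66700.1_BnaDAR, the gene with 77 exons, had 9.70 CPM in library 3, against 17.2 to 18.0 CPM in libraries 1, 2 and 4. The gap from the lowest library to its neighbour exceeded Dixon's 95% limit for 4 values. Chance alone marks about 1 in 20 such groups, and the gene overlaps another gene, so its counts may include reads of its neighbour, which was not tested.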

How the results depend on the processing

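For the many-exon genes, the sign of the median and the direction with more calls were kept in every alternative run. A threshold of 0.01 left 95 genes higher in HS + TSA low, 248 lower in HS + TSA high, and 45 higher and 3 lower between the doses. DESeq2 called 279 higher and 38 lower between the doses, and a fit of the 2 groups compared called 9 lower. With a limit of 15 exons the counts higher and lower were 459 and 1316 in HS + TSA low, 612 and 970 in HS + TSA high, and 342 and 49 between the doses. With 25 exons they were 65 and 263, 96 and 168, and 75 and 7, which follows from the number of genes. The median in HS + TSA low was -0.42 with upper-quartile factors, -0.55 without a filter on low counts, -0.41 with 15 exons and -0.53 in the fit of 2 groups.

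In the fit of the 7 HS + TSA libraries, the replicate number as a block gave 64 genes higher and 8 lower between the doses, next to 110 and 9 without the block, and a block over all 10 libraries changed no count against pollen by over 1.5 times. With a block, HS + TSA low library 4, which has no partner, does not enter the dose difference. Without HS + TSA low libraries 1 and 4 there were 60 and 9. Leaving out each library in turn gave 120 to 177 higher and 486 to 648 lower in HS + TSA low, 186 to 226 higher and 313 to 484 lower in HS + TSA high, and 72 to 184 higher and 9 to 55 lower between the doses. The medians then ranged from -0.55 to -0.47, from -0.31 to -0.16 and from 0.14 to 0.28.

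Against genes of 2 to 19 exons, matching on level per kb gave differences of -0.50 and -0.23 from pollen, and matching on level and length gave -0.040, 0.045 and 0.048 in the 3 comparisons, which turned the sign in HS + TSA high. The share of many-exon genes expressed was 89.7, 88.3 and 88.9% at 1 CPM in every library of pollen, HS + TSA low and HS + TSA high, 87.4, 84.8 and 85.7% at 0.5 CPM per kb, 98.9% at 10 counts in total, and 95.5 and 98.2% with limits of 15 and 25 exons.

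The median of A minus that of C many-exon genes was near 0, and its sign changed between alternatives in both comparisons with pollen but not between the doses. In the low dose it was 0.045 with 15 and 0.036 with 25 exons, 0.012 without low libraries 2 and 3, -0.042 without the chromosome stretches and -0.046 without them and C02. In the high dose it was -0.018 with DESeq2, -0.017 without a filter, 0.060 with 15 exons, -0.030 without the stretches and -0.035 without them and C02. Between the doses it was 0.046 with 15 exons, 0.0099 without low libraries 2 and 3, 0.043 without the stretches and 0.023 without them and C02. Leaving out each library gave -0.03 to 0.0076, -0.0049 to 0.042 and 0.041 to 0.088. The causes were not tested. Leaving out low libraries 2 and 3, and the stretches, was chosen after seeing the data.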
